A study of Oryza sativa with 6 samples.

Results

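The tubulin genes of rice were followed at the feeding site of the Asian rice gall midge on the Affymetrix Rice Genome Array. A probe set, which is a group of short probes read together as 1 signal, was taken as a member when it names 1 gene whose symbol or synonym begins, after a leading Os or p, with TUB and then a number, A and a number, or B and a number. This gave 15 of 57258 probe sets, control probe sets left out, which stand for 9 genes: 1 probe set of 1 alpha tubulin gene (TUBA1) and 14 probe sets of 8 beta tubulin genes (TUB1 to TUB8, also named TUBB1 to TUBB8). The gene with the clone name pTUB22 is TUB7. The array names 17905 genes by probe sets of 1 gene. The rule uses names and no measured value.

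The infested group (RP-I) was the resistant indica rice RP2068-18-3-5 (RP), which carries the recessive resistance gene gm3, exposed at 15 days to 25 female and 10 male midges of the avirulent biotype GMB1. The un-infested group (RP-UI) was the same variety, kept alike in other trays without midges. At 48 hours after insect release all trays of both groups were moved to a humid chamber. Each array joins material from 1 cm of stem at 24, 48 and 72 hours after infestation (hai), so a transcript has 1 value for the 3 time points. Each group has 3 arrays, 1 for each tray.

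Alpha and beta tubulin join as a pair, and the pairs line up into microtubules. Plant cells use microtubules under the plasma membrane to guide the enzymes that lay down cellulose, and build them anew as spindle and phragmoplast when a cell divides. Plants carry several genes for each tubulin, whose proteins are much alike, so that probes of one gene can also bind transcripts of another. Probe sets whose name ends in _x_at or _s_at are those that the array maker marks for this, and 3 of the 15 are of that kind, 1 each of TUB3, TUB4 and TUB7. Values are log2 signals after Robust Multichip Average (RMA) processing, where a difference of 1 is a 2-fold change, and signals of different probe sets are not compared.

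The first principal component of the 51532 probe sets kept after a filter on low signal held 49.8% of the variance. On it the arrays numbered 3 lay apart from numbers 1 and 2 of their group. Scores were -2.9, -13.9 and -122.3 for RP-I 1, 2 and 3, against 69.1, 95.4 and -25.3 for RP-UI 1, 2 and 3. The signal at the 3′ end minus that at the 5′ end, a sign of RNA quality, was averaged over 4 control transcripts. The average was 1.51, 1.44 and 0.78 in RP-I 1, 2 and 3, against 1.65, 1.51 and 0.92 in RP-UI 1, 2 and 3. The 4 were unlike, with actin at 4.71 to 5.90 and elongation factor 1 alpha at -2.84 to -2.04. For glyceraldehyde phosphate dehydrogenase RP-I 3 (0.80) lay between RP-I 1 (0.96) and RP-I 2 (0.59). Results are also given from a second fit in which the replicate number is a block (the blocked fit) and, as a choice made after seeing the data, without both arrays numbered 3. The array titles do not say what same-numbered arrays share.

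Transcripts of the beta tubulin TUB2 fell at the feeding site, and the alpha tubulin TUBA1 and the beta tubulin TUB1 had differences of like size. The other 6 beta tubulin genes had smaller differences, with overlapping groups in the probe set of highest mean signal. In that probe set the RP-I mean was the lower one in all 9 genes, as in 48.6% of all probe sets kept. Of the 9, 8 were lower in each of the 3 pairs of same-numbered arrays, a share not computed over all probe sets. For TUB3 that probe set ends in _x_at, and another of its probe sets was higher in RP-I (difference 0.53). At an adjusted p under 0.05 by limma, 1 of the 15 probe sets was lower in RP-I, where 0.328% of the 51532 probe sets kept were lower. In the blocked fit 4 of 15 were lower (TUBA1, TUB1, TUB2 and TUB8), where 4.44% of all were. There 0 of 15 were higher, where 2092 of the 51532 were.

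**Figure D1:**
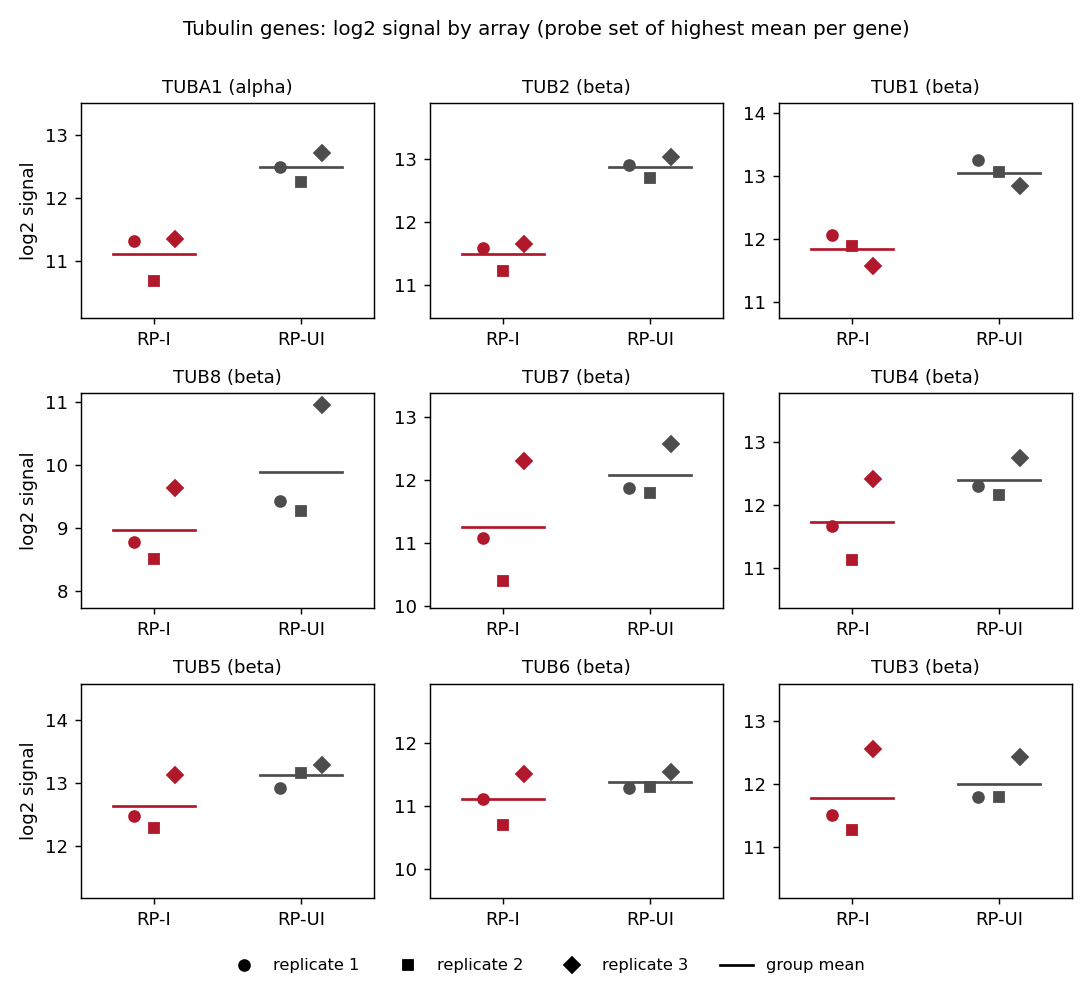
Log2 signal (y axis, 3.4 units high in each panel) of the probe set of highest mean signal of each tubulin gene, in infested (RP-I, red) and un-infested (RP-UI, grey) arrays. Symbols mark the replicate number and lines the group mean of 3 arrays. In TUBA1, TUB2 and TUB1 each RP-I array lies below each RP-UI array, and in the other 6 genes the groups overlap.

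TUBA1 (LOC4343694) is the alpha tubulin gene of the list. Its log2 signals were 11.32, 10.68 and 11.35 in RP-I 1, 2 and 3, against 12.50, 12.25 and 12.71 in RP-UI 1, 2 and 3. Each infested array was lower than each un-infested one. The means were 11.12 ± 0.38 in RP-I and 12.49 ± 0.23 in RP-UI (SD, n = 3 each), a difference of -1.37 (standard error 0.23, adjusted p = 0.0666, or 0.0164 in the blocked fit). On the linear scale the RP-I signal was 0.386 of that in RP-UI. The differences in pairs 1, 2 and 3 were -1.18, -1.57 and -1.37. Without both arrays numbered 3 the difference was -1.38 (adjusted p = 0.0472).

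A second alpha tubulin gene on the array, TID1 (LOC4350197), bears the synonym TubA with no number and so falls outside the rule. The rule misses any other alpha tubulin gene without a numbered symbol as well, so TUBA1 alone does not describe the alpha family. TID1 was added with the results of the tubulins known. In rice a mutant of this gene is a dwarf with twisted organs. Its 3 probe sets had differences of -0.09, -0.16 and -0.12 (adjusted p = 0.873, 0.690 and 0.847), and none passed in the blocked fit. In the first of them the log2 signals were 13.87, 13.79 and 13.85 in RP-I and 13.91, 13.97 and 13.89 in RP-UI, apart by a narrow margin. All 3 probe sets of TID1 are of the _s_at or _x_at kind. The difference between TUBA1 and TID1 was not tested.

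TUB2 (LOC4331315) is the beta tubulin with the widest gap between the groups for its spread. Its log2 signals were 11.59, 11.21 and 11.64 in RP-I 1, 2 and 3, against 12.89, 12.69 and 13.02 in RP-UI 1, 2 and 3. The groups did not overlap, and the differences in pairs 1, 2 and 3 were -1.30, -1.48 and -1.38. The means were 11.48 ± 0.24 in RP-I and 12.87 ± 0.16 in RP-UI (SD, n = 3 each), a difference of -1.39 (standard error 0.18, adjusted p = 0.0476, or 0.0150 in the blocked fit). The RP-I signal was 0.382 of the RP-UI signal on the linear scale. Outside the blocked fit the adjusted p lay between 0.0510 and 0.229 when any one of the 6 arrays was left out, with differences between -1.48 and -1.25. Without both arrays numbered 3 the difference was -1.39 (adjusted p = 0.0279).

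TUB1 (LOC4326917), another beta tubulin, has 2 probe sets. In that of the higher mean the log2 signals were 12.07, 11.89 and 11.58 in RP-I 1, 2 and 3, against 13.25, 13.06 and 12.84 in RP-UI 1, 2 and 3. Again no infested array reached an un-infested one. The difference was -1.20 (standard error 0.19, adjusted p = 0.0595, or 0.0164 in the blocked fit), with -1.18, -1.17 and -1.26 in the 3 pairs. Without both arrays numbered 3 it was -1.17 (adjusted p = 0.0280). The other probe set of TUB1 read 3.62, 3.66 and 3.68 in RP-I and 3.14, 3.28 and 3.71 in RP-UI, near the low end of the array, with overlapping groups (0.28, adjusted p = 0.619).

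The mean was lower in RP-I in 12 of the 15 tubulin probe sets (80.0%), as in 48.6% of all probe sets, with a median difference of -0.49 against 0.01 over all. Among the 15, 3 had an unadjusted p of 0.05 or under with a lower mean in RP-I, where 7.65% of all probe sets did, and 1 with a higher mean, where 6.58% did. The 3 lower ones, of TUBA1, TUB2 and TUB1, were also at least 2-fold lower, as 2.9% of all probe sets were with such a p. Every RP-I array was below every RP-UI array in 4 of the 15, against 9.73% of all probe sets. The fourth was a probe set of TUB4.

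**Figure D2:**
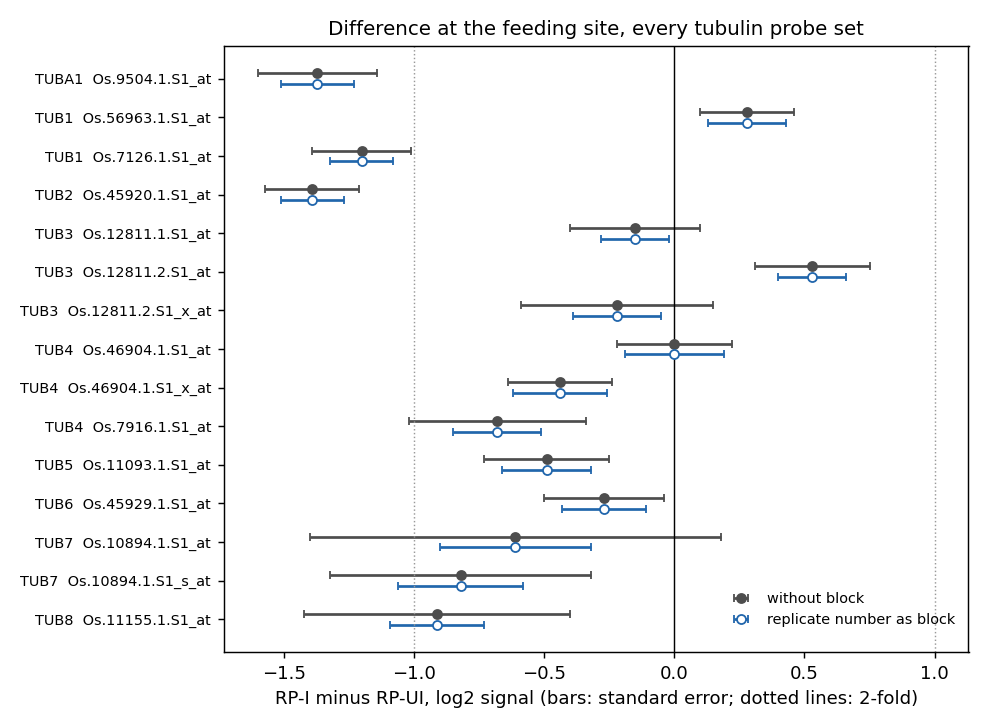
Difference RP-I minus RP-UI in log2 signal (x axis) for each of the 15 tubulin probe sets (y axis), with the standard error from limma without a block (filled) and from the blocked fit (open). Only TUBA1, TUB2 and 1 probe set of TUB1 lie beyond a 2-fold change, and the standard error of each of the 15 is smaller in the blocked fit.

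TUB8 and TUB7 were higher on the arrays numbered 3 than on the others in both groups. TUB8 (LOC4333632) is known in rice from anthers, the male organs of the flower. Its log2 signals were 8.79, 8.51 and 9.64 in RP-I 1, 2 and 3, against 9.44, 9.28 and 10.96 in RP-UI 1, 2 and 3. The infested array of each pair was lower, by 0.65, 0.77 and 1.33 in log2 signal, though RP-I 3 lay above RP-UI 1 and 2. The difference was -0.91 (standard error 0.51, adjusted p = 0.538, or 0.0433 in the blocked fit). Without RP-UI 3 it was -0.38, and without both arrays numbered 3 it was -0.71 (adjusted p = 0.0871).

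TUB7 (LOC4334309, pTUB22) has 2 probe sets. In the one ending in _s_at the log2 signals were 11.08, 10.40 and 12.31 in RP-I 1, 2 and 3, against 11.88, 11.80 and 12.57 in RP-UI 1, 2 and 3. The group difference was -0.82 (standard error 0.50, adjusted p = 0.581, or 0.112 in the blocked fit). Array RP-I 3 exceeded the mean of RP-I 1 and 2 by 1.58, and RP-UI 3 exceeded that of RP-UI 1 and 2 by 0.73. The other one held the widest spread of all 15, with 9.68, 8.93 and 11.81 in RP-I and 10.20, 10.34 and 11.73 in RP-UI. In it the shift of the arrays numbered 3 was 2.51 in RP-I and 1.46 in RP-UI, and the group difference was -0.61 (adjusted p = 0.869, or 0.311 in the blocked fit). Single arrays moved both values: it was -1.45 without RP-I 3, -0.38 without RP-I 1, -0.12 without RP-UI 3 and -0.01 without RP-I 2, and that of the _s_at probe set was -1.35 without RP-I 3 and -0.39 without RP-I 2.

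TUB4, TUB5 and TUB6 had lower means in RP-I without passing the test. In its probe set of highest mean, TUB4 (LOC4327550) had log2 signals of 11.67, 11.13 and 12.41 in RP-I, against 12.30, 12.17 and 12.75 in RP-UI (difference -0.68, adjusted p = 0.477, or 0.0831 in the blocked fit). TUB5 (LOC4328420) had 12.48, 12.29 and 13.12 in RP-I, against 12.92, 13.15 and 13.28 in RP-UI (difference -0.49, adjusted p = 0.462, or 0.171 in the blocked fit). TUB6 (LOC4338790) had 11.11, 10.70 and 11.51 in RP-I, against 11.29, 11.31 and 11.54 in RP-UI (difference -0.27, adjusted p = 0.734, or 0.404 in the blocked fit). In all 3 genes RP-I 2 was the lowest array, RP-I 3 lay among the un-infested arrays, and pair 3 had the smallest difference. Without RP-I 3 the differences of TUB4, TUB5 and TUB6 were -1.01, -0.73 and -0.47, and without RP-I 2 they were -0.37, -0.32 and -0.07.

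Other probe sets of TUB4 gave other values. The one ending in _x_at read 8.29, 8.11 and 8.77 in RP-I and 8.80, 8.90 and 8.82 in RP-UI, so its groups were apart (difference -0.44, adjusted p = 0.384). The third, close to the array medians (5.44 to 5.49), read 5.59, 5.40 and 6.15 in RP-I and 5.57, 5.81 and 5.76 in RP-UI. Its difference was 0.00, or -0.02 after quantile normalization and after centring each array on its median.

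The 3 probe sets of TUB3 (LOC4341810) differed in direction, and none passed the test. Of those ending in _at alone, that of the lower mean read 8.41, 8.73 and 8.10 in RP-I, against 8.03, 8.03 and 7.61 in RP-UI. Here each infested array was above each un-infested one, the single such case among the tubulins (difference 0.53, standard error 0.22, adjusted p = 0.346, or 0.0781 in the blocked fit). That of the higher mean read 9.39, 9.66 and 8.90 in RP-I, against 9.63, 9.64 and 9.11 in RP-UI (difference -0.15, adjusted p = 0.915). The one ending in _x_at read 11.51, 11.27 and 12.56 in RP-I, against 11.79, 11.79 and 12.43 in RP-UI (difference -0.22, adjusted p = 0.911). Arrays numbered 3 were the lowest of their group in both _at probe sets and the highest in the _x_at probe set. No single direction can thus be given for TUB3.

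The tubulin genes differed among themselves in how they varied over the arrays, taking the probe set of highest mean for each gene. The shift of the arrays numbered 3 against numbers 1 and 2, as the mean of both groups, was -0.36 for TUB1, 0.23 for TUB2 and 0.34 for TUBA1. It was 1.16 for TUB7 and 1.29 for TUB8, with TUB3, TUB4, TUB5 and TUB6 between 0.42 and 0.91. In 8 of 9 genes the arrays numbered 3 were higher in both groups in that probe set, and TUB1 was lower in both. TUB3 counts among the 8 by its _x_at probe set alone, since its _at probe sets were lower on those arrays in both groups. The share of all probe sets with such a shift was not computed. A lower average 3′ to 5′ difference stood on the same arrays, and its part in these shifts was not tested.

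**Figure D3:**
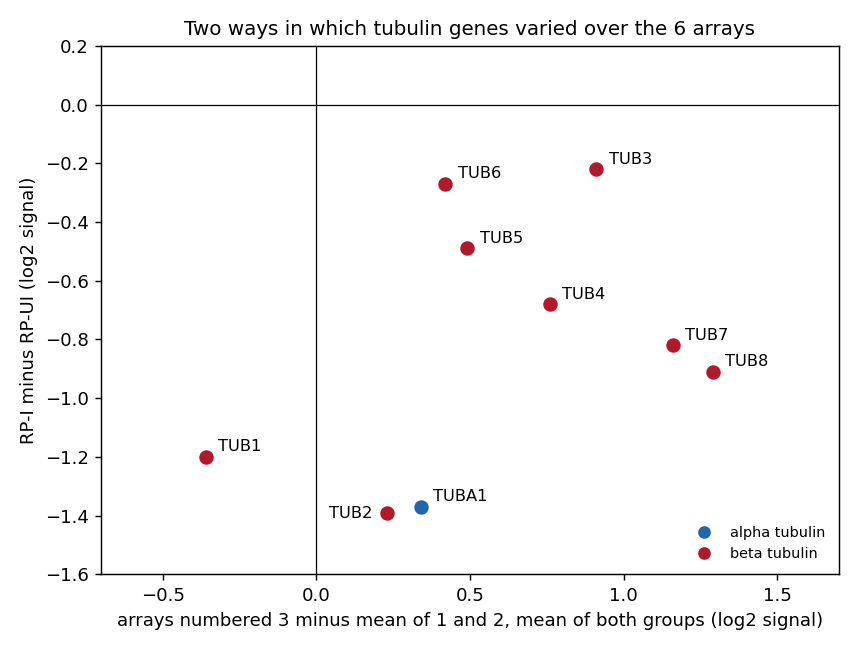
For each tubulin gene, the shift of the arrays numbered 3 against the mean of numbers 1 and 2, averaged over both groups (x axis, log2 signal), and the difference RP-I minus RP-UI (y axis, log2 signal). TUBA1, TUB1 and TUB2 combine differences of -1.37, -1.20 and -1.39 with shifts between -0.36 and 0.34, and TUB7 and TUB8 have shifts of 1.16 and 1.29.

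Across the 6 arrays, which share the group difference and the shift of number 3, the alpha tubulin TUBA1 followed the beta tubulin TUB2 closely (Pearson's r = 0.992). TUB1 correlated with TUB2 at 0.908 and with TUBA1 at 0.866. TUB4 and TUB7 followed each other as closely (r = 0.992), and TUB6 followed TUB7 at 0.984 and TUB4 at 0.974. TUBA1 and TUB2 also followed TUB4 (r = 0.827 and 0.775) and TUB7 (0.756 and 0.700), whereas TUB1 correlated with TUB4 at 0.451, with TUB7 at 0.350 and with TUB3 at -0.013.

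Among 81 genes that carry a symbol other than a number in the probe annotation, AGPS2, a small subunit of the enzyme that makes ADP-glucose for starch, was most like TUBA1 over the 6 arrays (r = 0.963). Next were SPO11-3, a DNA topoisomerase subunit (r = 0.959), and FEN1A, a nuclease of DNA replication (r = 0.905). The mean of the 8 beta tubulin genes was most like the ribosomal stalk protein gene 60SP0 (r = 0.974), AGPS2 (r = 0.947) and PHR2, a regulator of the response to phosphate starvation (r = 0.914). None of them passed the test (adjusted p from 0.135 to 0.700).

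Genes that work with tubulin also had lower means for the most part. Of 46 probe sets (40 genes) found by symbol as microtubule partners, most of them kinesin motors, 45 were kept. A lower mean in RP-I was found in 39 of these partner probe sets, as in 48.6% of all probe sets. Their median difference was -0.89, against -0.49 over the 15 tubulin probe sets and 0.01 over all 51532. KIN5C, of the kinesins that push spindle microtubules apart in other species, fell (9.96, 9.50 and 9.80 in RP-I, against 11.30, 11.31 and 11.25 in RP-UI, difference -1.53, adjusted p = 0.0356), as did KIN14N (-1.62, adjusted p = 0.0495). In the blocked fit 23 of 45 partner probe sets were lower, where 4.44% of all probe sets were. There 1 was higher, as 2092 of all 51532 were. Among the lower ones were KIN14C (-0.80, adjusted p = 0.0751, or 0.0379 in the blocked fit) and KIN5A (-0.93, adjusted p = 0.0765, or 0.0368 in the blocked fit).

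Partners that bind microtubules without being motors had values of like sign. The gamma tubulin gene TUBG2, whose protein starts new microtubules, had log2 signals of 10.29, 9.72 and 10.30 in RP-I, against 10.92, 10.66 and 10.66 in RP-UI, so that the groups were apart (difference -0.64, adjusted p = 0.212, or 0.0752 in the blocked fit). MOR1, which in Arabidopsis keeps microtubules long, had a difference of -0.46 in its probe set of highest mean (adjusted p = 0.162) and values of -0.58 and -0.18 in its other probe sets. The 4 microtubule-associated MAP70 genes had values between -0.89 and -0.50. MAP70.2 (-0.89, adjusted p = 0.227, or 0.0372 in the blocked fit) and MAP70.3 (-0.75, adjusted p = 0.288, or 0.0343 in the blocked fit) passed in the blocked fit alone. These genes were chosen after their values were seen. The list also holds KIN17, whose symbol is used in other species for a protein that binds DNA and RNA and is no motor.

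Cellulose synthases travel along microtubules in the plasma membrane. In infested tissue 13 of 13 of their probe sets (9 genes) were lower on average, as 48.6% of all probe sets were. Their median difference was -0.73. By limma 0 of the 13 passed in either fit, where 0.328% of all probe sets passed as lower, or 4.44% in the blocked fit. An unadjusted p of 0.05 or less with a lower mean was found in 8, where 7.65% of all probe sets had it. In either direction the count was 3 without RP-UI 1, 3 without RP-UI 2 and 4 without RP-UI 3. Over all 51532 probe sets it was 7330 with all arrays, against 5015, 5644 and 7979 without RP-UI 1, 2 and 3. The lowest p was that of CESA8 (-0.92, adjusted p = 0.0968, or 0.0542 in the blocked fit). Actins and actin-related proteins, of the other filament of the plant cytoskeleton, had a median of -0.34 over 16 probe sets (10 genes), 10 of them with a lower mean. By limma 0 of the 16 passed, where 0.328% of all probe sets passed as lower. An unadjusted p of 0.05 or less was found in 4 lower and 2 higher ones, against 7.65% lower and 6.58% higher of all probe sets. These 6 became 3 without RP-I 1, and 4 without RP-I 2 or RP-UI 2. Over all probe sets 7330 became 6801 without RP-I 1, 5790 without RP-I 2 and 5644 without RP-UI 2. In the blocked fit 2 were lower, where 4.44% of all were.

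**Figure D4:**
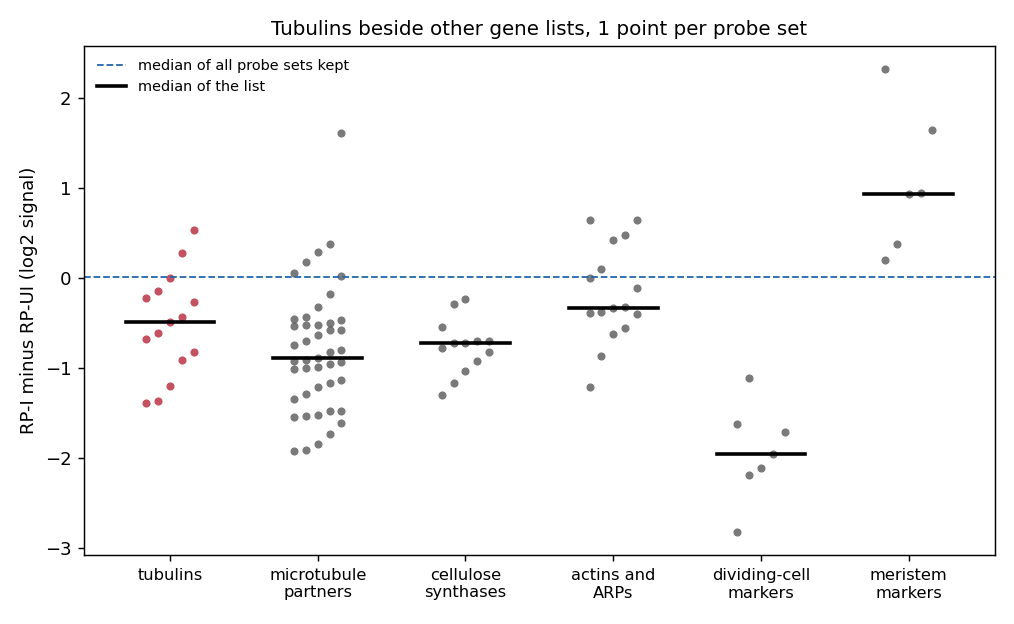
Difference RP-I minus RP-UI in log2 signal (y axis) of each probe set kept, for the tubulins (red) and other gene lists (grey), with the median of each list (black bar) and of all probe sets (dashed line). The medians are -0.49 for tubulins, -0.89 for microtubule partners, -0.73 for cellulose synthases, -0.34 for actins, -1.96 for markers of dividing cells and 0.93 for markers of the shoot meristem.

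Markers of dividing cells were lower on the same arrays. All 7 probe sets of B-type cyclins, CDKB2;1 and PCNA were lower on average in RP-I, as 48.6% of all probe sets were. Their summed level was 10.41 to 12.30 in RP-I against 13.34 to 13.53 in RP-UI (log2). The replication clamp PCNA fell (-2.83, adjusted p = 0.0284). Secondary wall cellulose synthases (4 of 4 probe sets lower, against 48.6% of all) summed to 9.89 to 11.36 in RP-I against 11.87 to 12.10 in RP-UI. Green tissue genes (2 of 6 lower, against 48.6% of all) summed to 13.15 to 13.79 in RP-I against 14.38 to 14.92 in RP-UI. In the green tissue list the lower probe sets were both of CAB2R (-1.32 and -1.59), while the 4 of RBCS had differences from 0.00 to 0.41 and the median of the list was 0.01. Shoot meristem genes (6 of 6 higher, as 26511 of the 51532 probe sets kept were) summed to 10.18 to 10.50 in RP-I against 9.15 to 9.57 in RP-UI. OSH71 rose (1.64, adjusted p = 0.0476). The groups overlapped in OSH6 (adjusted p = 0.695) and in both probe sets of OSH43 (adjusted p = 0.358 and 0.582). Outside the blocked fit no probe set of the array was called by limma without RP-I 1, RP-I 2 or any single RP-UI array, so the calls of KIN5C, KIN14N, PCNA and OSH71 were lost there. Phloem genes (1 of 2 lower, against 48.6% of all) summed to 13.24 to 13.97 in RP-I and 13.35 to 13.89 in RP-UI. The sucrose transporter gene SUT1 was higher in the blocked fit (1.29, adjusted p = 0.236, or 0.0164 in the blocked fit). No list had all its markers at the bottom of the array. The part of these cell types in the tubulin values was not tested, and in bulk tissue fewer cells of a type and less RNA per cell cannot be told apart.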

How the data were processed

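Total RNA from stem of 3 RP-I and 3 RP-UI trays was hybridized to the Affymetrix Rice Genome Array. The authors made log2 signals with RMA and deposited them for all 57381 probe sets. GeneSpring is the software in the methods, whereas Affymetrix Expression Console stands beside RMA in the submitters' processing notes. Material of the 3 time points was joined as RNA by the methods and as tissue by the labels. RMA normalizes quantiles between arrays, so a shift shared by most transcripts would not show.

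The 123 control probe sets were left out, and probe sets whose mean reached the 10th percentile were kept (51532, all 15 tubulin probe sets among them). Groups were compared with limma 3.58.1 in R 4.3.3 (lmFit, eBayes, checked on simulated data), Benjamini-Hochberg adjustment ran over all 51532 kept, and 0.05 was the threshold. Python 3.11.15, pandas 2.3.3, numpy 2.4.6 and matplotlib 3.10.9 were used for tables and figures. Gene names came from the probe annotation of the platform and from RefSeq names for assembly ASM3414082v1, by gene ID (9 of 9 tubulin genes matched). No coordinates or sequences were used here.

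Members and lists were chosen with earlier results of these data known. All tubulin probe sets are described. In the partner lists the rule names the members with the smallest p, up to 4 for each list. TUBG2, MOR1, the MAP70 genes, KIN17 and KIN14M were named beyond it, after their values were seen. Likeness was measured by Pearson's r over the 6 arrays. Alternatives were the replicate block, other filters and scalings, trend with robust variance, leaving out arrays, and leaving out _x_at and _s_at probe sets. Same-numbered arrays deviated from their group means together (r = 0.521, 0.308 and 0.624 for numbers 1, 2 and 3). The array titles give a replicate number and do not say what same-numbered arrays share, so the pairing rests on these values. For number 2 it is weak, since RP-I 2 with RP-UI 1 gave r = 0.295. Arrays of different numbers gave r from -0.547 to 0.295. The number of arrays limits the precision.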

Additional observations from a re-analysis of the deposited data

How the results depend on the processing

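The median difference of the 15 tubulin probe sets was -0.49 and stayed negative in each alternative, between -0.73 and -0.32 on leaving out any one array. The beta tubulin probe sets called numbered 1 (TUB2), against 3 with the replicate block, 2 without both arrays numbered 3, and 0 after median centring (adjusted p of TUB2 0.0510) and with trend and robust variance (0.0624). The alpha tubulin called numbered 0, against 1 with the replicate block and 1 without both arrays numbered 3. Microtubule partners called numbered 2, against 24 with the block, 17 without both arrays numbered 3, 1 after median centring and 0 with trend and robust variance. Actins called numbered 0, against 2 with the block and 1 without both arrays numbered 3. With single arrays left out the counts were 0 for alpha tubulin, 0 for beta tubulin and 0 to 1 for partners. Over all probe sets 290 were called, against 4379 with the replicate block, 2466 without both arrays numbered 3, 402 after quantile normalization, 126 after median centring and 87 with trend and robust variance. Without RP-I 3 there were 280, and 0 without any other single array, where 5015 to 7979 had an unadjusted p of 0.05 or under. Leaving out _x_at and _s_at probe sets, or changing the filter, moved no tubulin count by over 1.5 times. At an unadjusted p of 0.05 or under in either direction, 3 of 14 beta tubulin probe sets were counted, 2 lower and 1 (of TUB3) higher in RP-I. The count was 7 with the block, 9 without RP-I 3 and 10 without both arrays numbered 3. Over all 51532 probe sets it was 7330, against 11924 with the block, 7861 without RP-I 3 and 10706 without both arrays numbered 3.

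Signs turned in 3 tubulin probe sets whose differences were small. For TUB3 the difference turned to 0.06 without RP-I 3 in the _at probe set of higher mean (-0.15), and to 0.03 without RP-I 2 in the _x_at probe set, where leaving out single arrays gave -0.61 to 0.03. For the TUB4 probe set of lowest mean (0.00) it was -0.02 after quantile normalization and after median centring, -0.22 to 0.16 when single arrays were left out (-0.22 without RP-I 3, -0.07 without RP-UI 1) and -0.20 without both arrays numbered 3. The cause was not tested. Depth has no meaning for these arrays, and signal near the low end limits the probe set of lowest mean of TUB1.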

Other observations

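Actin genes did not share a direction. ACT2 had log2 signals of 11.78, 12.05 and 10.64 in RP-I, against 12.87, 12.73 and 12.52 in RP-UI (difference -1.22, limma adjusted p = 0.193, or 0.0494 with the replicate block). ACT7 was higher, with 12.69, 12.66 and 12.35 in RP-I against 12.13, 12.07 and 12.09 in RP-UI in the _x_at probe set (0.47, adjusted p = 0.201) and 0.64 in its other probe set, where the groups overlapped (adjusted p = 0.399). ACT1, whose promoter is widely used to drive transgenes in rice, had differences of -0.40 and -0.63 (adjusted p = 0.525 and 0.125). The actin-related ARP7 had a difference of -0.87 (adjusted p = 0.0666, or 0.0223 with the block). The test of each against another was not run.

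Among the microtubule partners KIN14M went the other way from most, a gene chosen here after its value was seen. Its log2 signals were 7.25, 7.37 and 7.87 in RP-I, against 5.78, 5.25 and 6.62 in RP-UI, with each infested array above each un-infested one (difference 1.61, limma adjusted p = 0.108, or 0.0200 with the replicate block).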
